A study of Mus musculus with 34 samples.

Results

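The second postnatal week was examined by comparing cortical astrocytes of P14 mice with those of P7 mice, 4 libraries against 4 of the 34 in the series, over all genes. P7 and P14 stand for postnatal day 7 and postnatal day 14. Each group is labelled as astrocytes of wild-type males, taken from cortex and isolated with a magnetic method whose antibody the labels do not name. No treatment, transgene, Cre line or strain is named for either, so age is the labelled difference. The other 26 libraries belong to 7 later ages, from P21 to 18 months, and enter here only where their levels are given. The measured quantity was polyadenylated RNA in TPM, a gene's share of all transcripts corrected for its length, with each library summing to 1000000. Whether the libraries of an age stand for separate animals is not in the labels, so the p-values below measure only the spread between libraries, which may be technical.

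Astrocytes take up glutamate and potassium released at synapses, couple to one another through gap junctions, and cover synapses and blood vessels with fine processes. In rodent cortex they arise from radial glia and then multiply locally in the days after birth. In the following weeks they leave the cell cycle, ramify and take on their adult set of transporters and channels, while synapses form and neurons become active around them.

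The label of the cells was checked first. All 20 mature astrocyte markers were measured above the filter in the 8 libraries, and their summed level lay between 54270.0 and 61720.0 TPM at P7 and between 72680.0 and 84960.0 TPM at P14. The lipid carrier gene Apoe was the most abundant gene in each library. Both ages had a similar number of genes listed at 0, 4522 to 4769 at P7 and 4540 to 4819 at P14. The first principal component, 52.3% of the variance, placed the 4 P7 libraries between -25.7 and -19.8 and the 4 P14 libraries between 18.2 and 27.9. The second, 19.1%, set P14 libraries 2 and 3 (23.1 and 12.3) apart from P14 libraries 1 and 4 (-11.9 and -20.1). It also set P7 libraries 1 and 4 (7.32 and 6.83) apart from P7 libraries 2 and 3 (-12.9 and -4.62). No pair of libraries was a duplicate (Pearson r across genes 0.965 to 0.993).

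Transcripts of other cells were present at both ages and are given here because they touch several results. Summed levels ran from 7632 to 10600.0 TPM at P7 and 3964 to 10450.0 TPM at P14 for erythroid genes, and from 2359 to 3635 and 1823 to 4798 TPM for genes of pericytes and smooth muscle. Within P14, libraries 1 and 4 had more endothelial signal (list means of 6.21 and 6.46 in log2(TPM + 1)) than libraries 2 and 3 (4.89 and 5.63). Microglial genes had the opposite order, with 3.08 and 2.72 against 3.91 and 4.37. The P7 libraries differed too. Microglial means were 3.41 and 3.33 in P7 libraries 1 and 4 against 2.64 and 2.39 in P7 libraries 2 and 3. Endothelial means were 5.07 and 5.14 against 5.63 and 5.32. In bulk RNA, fewer cells of a type and less RNA per cell cannot be told apart.

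A gene entered the test if it reached 1 TPM in at least 4 of the 8 libraries, which 13197 genes did. Levels were compared as log2(TPM + 1) with limma, and a gene was called at a Benjamini-Hochberg adjusted p under 0.05 over all genes tested. On that scale differences of low genes are understated. A gene under 1 TPM in all libraries of 1 age entered only through the other age, so its direction was fixed by the filter. This holds for Vip, Mobp, Crh, Igf2bp3 and Kcnj6 below, whose p-values are not read as support. From P7 to P14, 4797 genes were called, 36.3% of those tested: 1235 rose (9.36%) and 3562 fell (27.0%). The difference passed a factor of 2 on the log2(TPM + 1) scale for 269 genes (2.04%), 160 of them higher and 109 lower. All 4 P14 libraries lay above all 4 P7 libraries for 1196 genes (9.06%) and below them for 3657 genes (27.7%). The balance of rises and falls depended on the scale. The median gene differed by -0.12, and after rescaling the libraries by median-of-ratios factors, which brought that median to -0.004, 1990 genes rose (15.1%) and 1832 fell (13.9%). For most gene groups below, the counts after rescaling are therefore given beside the main ones, and a group's median is to be read against -0.12. No called gene named by the rule given under processing changed direction under median-of-ratios or quantile scaling. In a fit of all 34 libraries, which shares 1 estimate of spread over the 9 ages, 1784 genes were called, 485 higher and 1299 lower, and its counts are given beside those groups below where they differ most from the main ones, and in part in the closing section. A group's counts in the main fit are to be read against the shares of all genes tested, 9.36% for rises and 27.0% for falls. Counts after rescaling are to be read against 15.1% for rises and 13.9% for falls. Counts in the fit of all 34 libraries are to be read against its 485 rises and 1299 falls among 13197 genes, both smaller shares than in the main fit.

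**Figure D1:**
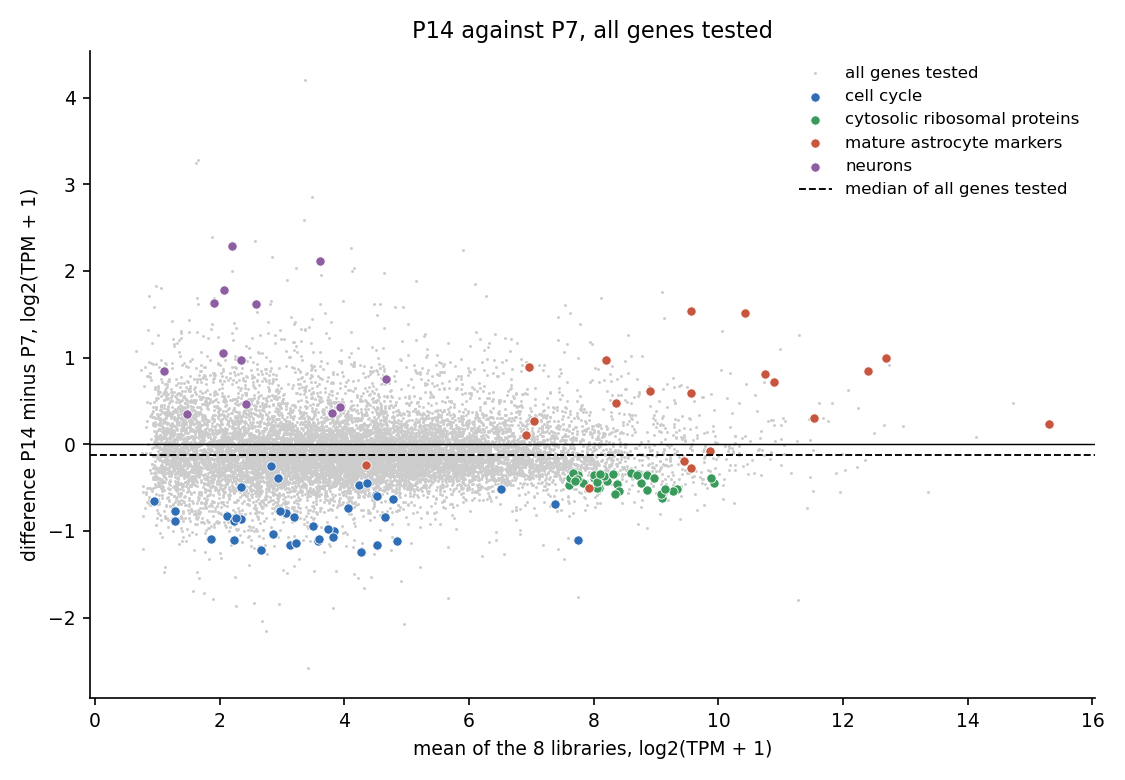
Difference between P14 and P7 in log2(TPM + 1) (y axis) against the mean of the 8 libraries (x axis) for the 13197 genes tested, each a point. The dashed line marks the median of all genes, -0.12. Cell cycle genes and ribosomal protein genes lie below it and most mature astrocyte markers above it.

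Cell cycle genes fell together. Of 38 genes of DNA replication and mitosis, 37 fell and none rose (none at an unadjusted p under 0.05), against 27.0% of all genes. After rescaling 35 fell, against 13.9% of all genes. The median difference was -0.85, and the summed level went from 1079 to 1255 TPM at P7 down to 567 to 685 TPM at P14. The exception was E2f1, a transcription factor of S phase entry (difference -0.25, adjusted p = 0.161).

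Ccnd2 encodes cyclin D2, which drives the G1 phase (chromosome 6, 127125162 to 127152193, GRCm38). It measured 323, 292, 315 and 322 TPM at P7 and 152, 135, 152 and 144 TPM at P14. The groups lay far apart, with a fall of 2.15-fold (log2 difference -1.10 ± 0.06 SE, limma adjusted p = 1.25e-05). Ccnb1, the mitotic cyclin B1, measured 30.8, 24.9, 23.6 and 37.04 TPM at P7 and 14.3, 10.4, 10.9 and 10.8 TPM at P14. Its P14 library 1 was the highest of that age and still below every P7 library (2.51-fold lower, log2 difference -1.25 ± 0.15 SE, limma adjusted p = 0.000329). Mitotic kinases followed. Plk1 fell 2.72-fold, from 8.69 ± 0.885 to 3.19 ± 0.572 TPM (mean ± SD, n = 4 per age, as throughout), and Aurkb fell 2.3-fold, from 16.8 ± 2.25 to 7.31 ± 0.77 TPM. Mki67, the proliferation antigen Ki-67, was low at both ages and fell from 2.71, 1.96, 1.88 and 2.73 TPM to 1.05, 0.549, 0.616 and 0.954 TPM. Its groups did not overlap.

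Promoters of mitotic genes are known for CCAAT boxes, bound by NF-Y, and for the element TTTGAA, the core of the cell cycle homology region. The 150 bases before the start of 4 of these genes are shown because each carries several copies of these letters. The genes were picked after their values were seen. Capitals mark CCAAT or its reverse complement ATTGG and TTTGAA or its reverse complement TTCAAA. The sequences are RefSeq's, on GRCm38.p6, written 5′ to 3′ on the gene's strand: Cdk1 at chr10:69352913-69353062 (minus), Top2a at chr11:99024190-99024339 (minus), Ube2c at chr2:164769779-164769928 (plus) and Ccnb1 at chr13:100786487-100786636 (minus).
Cdk1: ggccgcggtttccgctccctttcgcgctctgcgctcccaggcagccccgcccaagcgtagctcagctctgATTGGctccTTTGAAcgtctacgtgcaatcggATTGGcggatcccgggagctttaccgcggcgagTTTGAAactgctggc
Top2a: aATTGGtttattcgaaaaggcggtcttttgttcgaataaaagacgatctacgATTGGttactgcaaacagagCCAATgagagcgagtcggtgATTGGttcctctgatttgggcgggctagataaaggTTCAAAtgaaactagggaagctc
Ube2c: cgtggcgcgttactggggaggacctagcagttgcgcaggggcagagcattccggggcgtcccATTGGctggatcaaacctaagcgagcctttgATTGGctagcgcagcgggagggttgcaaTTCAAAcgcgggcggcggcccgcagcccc
Ccnb1: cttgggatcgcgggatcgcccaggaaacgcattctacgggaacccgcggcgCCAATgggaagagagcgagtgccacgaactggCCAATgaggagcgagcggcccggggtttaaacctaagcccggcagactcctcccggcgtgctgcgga
Cdk1, the kinase that drives entry into mitosis, has both elements 2 times. Top2a, a topoisomerase, has 4 CCAAT boxes and 1 TTTGAA on either strand. Ube2c, the ubiquitin-conjugating enzyme of the anaphase complex, has 2 and 1, and Ccnb1 has 2 CCAAT boxes with no TTTGAA in this window. Cdk1 fell 2.32-fold (log2 difference -1.16 ± 0.13 SE, limma adjusted p = 0.000219), Top2a 2.51-fold (log2 difference -1.16 ± 0.14 SE, limma adjusted p = 0.000289) and Ube2c 2.24-fold (log2 difference -1.11 ± 0.13 SE, limma adjusted p = 0.000296).

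The whole list was then read in the same way. Of the 38 cell cycle genes, 29 had an entry among the promoters, and in the 250 bases before the start 24 of the 29 (82.8%) held CCAAT on either strand, against 36.6% of the 10484 tested genes with an entry. TTTGAA stood in 9 (31.0%, against 10.2%), and all 9 also held CCAAT (31.0%, against 4.03%). The E2F letters TTTCCCGC stood in 1 of the 29 (3.45%, against 1.71%) and TTTGGCGC in 2 (6.9%, against 0.801%). Those 2 were Mcm5 and Mcm6. Their listed starts, like those of E2f1, Hmgb2 and Mcm7, did not match a transcript start in GENCODE M21. All these motif counts are matches of letters and not measured binding.

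Genes of progenitors and immature astroglia moved in the same direction. Of 20, 16 fell and 1 rose (13 and 1 after rescaling), with a median of -0.52, and 8 fell in the fit of all 34 libraries. Nes, Hes5 and Cd24a were not called. Fabp7, the brain lipid binding protein of radial glia (chromosome 10, 57784881 to 57788450), measured 5329, 3598, 4433 and 5304 TPM at P7 and 1531, 1511, 1413 and 940.2 TPM at P14. The lowest P7 library was more than any P14 library, and P14 library 4 was the lowest of all (3.46-fold lower, log2 difference -1.80 ± 0.18 SE, limma adjusted p = 0.000216). Fabp7 did not pass in the fit of all 34 libraries. Ptprz1, a receptor phosphatase of glial progenitors, fell 1.89-fold, from 573 ± 46.3 to 304 ± 29.9 TPM. Vim, the intermediate filament of immature glia, fell 1.73-fold, from 266 ± 20.2 to 154 ± 18.9 TPM, and Igfbp2, which binds insulin-like growth factors, fell 1.6-fold, from 1533 ± 136 to 961 ± 97.8 TPM. Hopx, a homeodomain protein of radial glia and of some mature astrocytes, was the 1 member to rise, from 346 ± 40.9 to 525 ± 69.1 TPM (log2 difference 0.60 ± 0.11 SE, limma adjusted p = 0.00255). Sox11, a transcription factor shared with immature neurons, fell from 3.77, 3.66, 4.03 and 4.15 TPM to 2.29, 2.02, 2.03 and 1.45 TPM.

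The extracellular matrix changed in both directions. Proteoglycans and tenascins form the loose matrix of young brain, which is later replaced by nets around neurons. Of 11 tested, 3 rose and 5 fell, with the same counts after rescaling, and Acan did not pass the filter. Tnc, tenascin C (chromosome 4, 63959785 to 64047015), measured 35.1, 29.7, 34.5 and 38.6 TPM at P7 and 11.3, 11.8, 10.9 and 7.38 TPM at P14, a fall of 3.33-fold (log2 difference -1.66 ± 0.14 SE, limma adjusted p = 6.66e-05). Ncan, neurocan, measured 108, 108, 126 and 117 TPM at P7 and 46.8, 52.7, 46.9 and 39.7 TPM at P14. Both left a wide gap between the ages. Ncan fell 2.46-fold (log2 difference -1.29 ± 0.09 SE, limma adjusted p = 3.05e-05) and Vcan, versican, 2.81-fold (log2 difference -1.26 ± 0.11 SE, limma adjusted p = 9.62e-05). Hapln1, the link protein that ties proteoglycans to hyaluronan, rose 1.97-fold, from 59.8 ± 8.33 to 118 ± 11.9 TPM, and with it rose Tnr, tenascin R (0.75), and the syndecan gene Sdc4 (0.84).

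Of 19 tested collagen and basement membrane genes, 10 fell and none rose (7 and 1 after rescaling), with a median of -0.46. Of the falls, 1 stood in the fit of all 34 libraries, and 1 gene rose without P14 library 2. Agrn, agrin, fell 1.61-fold, from 41.2 ± 1.42 to 25.6 ± 3.27 TPM. The basement membrane collagen gene Col4a5 fell 1.61-fold, from 8.55 ± 0.371 to 5.3 ± 0.541 TPM, and Col11a1, a minor fibrillar collagen, 2.16-fold, from 2.49 ± 0.3 to 1.15 ± 0.248 TPM. Col3a1, a collagen of connective tissue, measured 28.4, 23.5, 17.5 and 18.9 TPM at P7 and 17.3, 11.1, 11.5 and 11.9 TPM at P14 (adjusted p = 0.00927). The count was 16 falls without P14 libraries 1 and 4 and 6 falls without P14 libraries 2 and 3, and Col3a1 did not pass without the latter. Fibroblast and meningeal genes, 3 of which are collagens of this list, had list means of 5.39 to 6.05 at P7 and 4.79 to 5.35 at P14, and 5 of 8 fell (3 after rescaling, none in the fit of all 34 libraries). Their part in the fall of collagens was not tested.

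Genes of the mature astrocyte rose in the majority. Of the 20 mature astrocyte markers, 12 rose and 1 fell, with the same counts after rescaling and 2 falls without P14 library 1 or 2. Of all genes 9.36% rose, and 15.1% after rescaling. The median was 0.53. The marker that fell was Aldh1l1, a folate enzyme used to label astrocytes, from 291 ± 36.01 to 204 ± 14.1 TPM (log2 difference -0.50 ± 0.09 SE, limma adjusted p = 0.00248). S100b, a calcium-binding protein, rose 1.87-fold from 79.6, 93.4, 106 and 86.2 TPM to 151, 177, 184 and 169 TPM. Gfap, the intermediate filament of astrocytes, measured 699.5, 929, 969 and 752 TPM at P7 and 821, 684, 670.4 and 583 TPM at P14 and was not called (log2 difference -0.28 ± 0.13 SE, limma adjusted p = 0.117). Sox9, a glial transcription factor, was not called either, with 116 ± 22.6 TPM at P7 and 123 ± 7.32 TPM at P14 (adjusted p = 0.528).

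**Figure D2:**
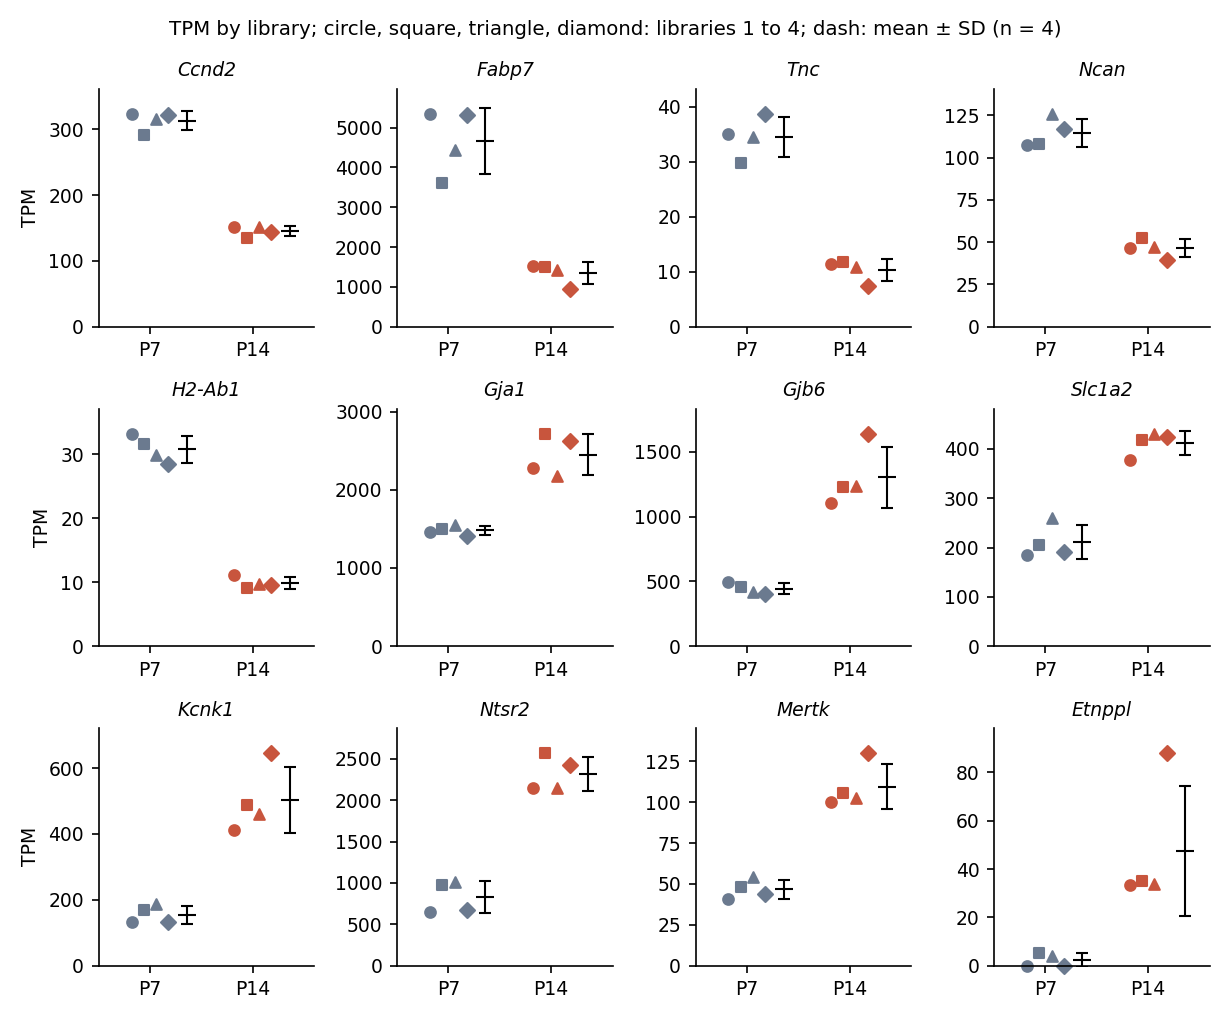
TPM (y axis, from 0) of 12 genes in the 4 P7 and the 4 P14 libraries (x axis), with a marker shape per library and mean ± SD beside the points. Ccnd2, Fabp7, Tnc, Ncan and H2-Ab1 are lower in every P14 library and the other 7 genes higher in every P14 library, with Etnppl in P14 library 4 at 87.9 TPM.

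Uptake and conversion of glutamate and GABA were tested with 18 genes, of which 7 rose and 1 fell (8 and 0 after rescaling, and 4 rises in the fit of all 34 libraries). Slc1a2 encodes GLT-1, the main glutamate transporter of adult cortex (chromosome 2, 102658659 to 102790784). It measured 185, 206, 260.2 and 192 TPM at P7 and 377, 419, 430.4 and 424 TPM at P14. Every P14 library exceeded every P7 library, and the level rose 1.96-fold (log2 difference 0.98 ± 0.10 SE, limma adjusted p = 0.000193). Slc1a3, the transporter GLAST, was far more abundant and rose less, from 2667 ± 249.5 to 3286 ± 362 TPM (1.23-fold, log2 difference 0.30 ± 0.10 SE, limma adjusted p = 0.0365). The call for Slc1a3 was lost without P14 library 2, 3 or 4 or P7 library 1 or 2 (adjusted p = 0.0507 to 0.108). Glul, glutamine synthetase, measured 1185, 1276, 1505 and 1230.3 TPM at P7 and 2027, 2507, 2333 and 2275 TPM at P14, a rise of 1.76-fold (log2 difference 0.82 ± 0.09 SE, limma adjusted p = 0.000254). Maob, monoamine oxidase B, rose 2.23-fold, from 42.8 ± 5.04 to 95.3 ± 11.2 TPM. Glud1, glutamate dehydrogenase, was the member that fell (1.26-fold, log2 difference -0.33 ± 0.06 SE, limma adjusted p = 0.00251), and it was not called after rescaling. The GABA transporter gene Slc6a11 was not called (0.07, adjusted p = 0.809).

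Channels, gap junctions and endfoot proteins were represented by 18 genes chosen for astrocytes. Of these, 10 rose and none fell (11 and 0 after rescaling, 1 fall without P14 library 2, and 5 rises in the fit of all 34 libraries), with a median of 0.33. Gjb6 encodes connexin 30 (chromosome 14, 57123303 to 57133611) and measured 494, 459.9, 422 and 401 TPM at P7 and 1106, 1229, 1235 and 1638 TPM at P14. It rose 2.93-fold (log2 difference 1.54 ± 0.12 SE, limma adjusted p = 5.38e-05), and its lowest P14 value was more than any P7 value. Gja1, connexin 43, rose 1.65-fold from 1457, 1499, 1549 and 1411 TPM to 2283, 2713, 2175 and 2619 TPM. Kcnk1 encodes the two-pore potassium channel TWIK-1 and measured 132, 169, 187 and 131 TPM at P7 and 412, 488, 462 and 644 TPM at P14. The P14 values were all above those of P7 and spread more widely (3.24-fold, log2 difference 1.69 ± 0.16 SE, limma adjusted p = 0.000173). Kcnj10, the inward rectifier Kir4.1, and Aqp4, the water channel of endfeet, were not called. Kcnj10 measured 18.9, 17.9, 27.7 and 21.1 TPM at P7 and 15.8, 17.7, 21.9 and 16.05 TPM at P14 (adjusted p = 0.218). Aqp4 measured 685, 769, 820.2 and 696 TPM at P7 and 634, 756, 635 and 586 TPM at P14 (adjusted p = 0.131). Both overlapped between the ages.

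Receptors for transmitters and modulators moved in both directions. Of 19 tested, 7 rose and 3 fell (8 and 2 after rescaling). Grm5, the metabotropic glutamate receptor mGluR5 of young astrocytes (chromosome 7, 87584168 to 88134907), measured 15.1, 12.8, 14.6 and 15.1 TPM at P7 and 5.26, 6.37, 4.86 and 4.21 TPM at P14. All P14 values were less than the lowest P7 value (2.78-fold lower, log2 difference -1.33 ± 0.12 SE, limma adjusted p = 8.55e-05). Grm3, the metabotropic receptor mGluR3, rose from 198, 209, 244 and 215 TPM to 253, 286, 249 and 302 TPM (log2 difference 0.33 ± 0.08 SE, limma adjusted p = 0.0125). The neurotensin receptor gene Ntsr2, expressed by astrocytes, measured 644, 979, 1014 and 677 TPM at P7 and 2150.4, 2565, 2146 and 2421 TPM at P14, a rise of 2.8-fold (log2 difference 1.51 ± 0.15 SE, limma adjusted p = 0.00021). Hrh1, a histamine receptor, rose 1.8-fold, from 26.1 ± 2.31 to 47.1 ± 4.51 TPM. The AMPA receptor genes Gria1 (0.91) and Gria2 (0.39) also rose. Neurons express both, and neuronal markers rose over the same week, as described below. Their part was not tested.

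Among 22 secreted and surface proteins that act on synapses, 6 rose and 4 fell (6 and 3 after rescaling), and no fall stood in the fit of all 34 libraries. Thbs4, a thrombospondin, measured 5.11, 11.1, 11.9 and 5.14 TPM at P7 and 36.9, 31.6, 30.2 and 37.6 TPM at P14, a rise of 4.11-fold (limma adjusted p = 0.000709). The P7 libraries fell into a lower and a higher pair, both below P14. Il33, an alarmin that astrocytes release to microglia, rose 2.48-fold, from 24.4 ± 2.54 to 60.5 ± 7.27 TPM, and Gpc5, a glypican, 1.88-fold, from 102 ± 15.3 to 191 ± 24.9 TPM. Ptx3, a pentraxin, measured 26.1, 23.7, 24.8 and 27.3 TPM at P7 and 11.2, 10.8, 10.8 and 9.66 TPM at P14, a fall of 2.4-fold (log2 difference -1.19 ± 0.08 SE, limma adjusted p = 2.41e-05). The thrombospondin genes Thbs1 (-0.45, adjusted p = 0.0697) and Thbs2 (-0.13, adjusted p = 0.517) were not called.

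For phagocytosis, 14 genes were tested and 2 rose and 4 fell (2 and 2 after rescaling), with 1 fall in the fit of all 34 libraries. Both shares are near those of all genes (9.36% and 27.0%). Mertk, a receptor tyrosine kinase for the engulfment of synapses and debris, measured 40.6, 47.8, 54.2 and 44.04 TPM at P7 and 100.2, 106, 103 and 129.8 TPM at P14, a rise of 2.35-fold (log2 difference 1.21 ± 0.11 SE, limma adjusted p = 7.75e-05). Gas6, its bridging ligand, rose 1.87-fold, from 39.4 ± 9.16 to 73.7 ± 7.08 TPM. Itgb5, an integrin subunit, fell 1.42-fold, from 131 ± 6.89 to 91.95 ± 3.32 TPM. Megf10, the other engulfment receptor of astrocytes, was not called (0.03, adjusted p = 0.852). Microglia also express Mertk and Gas6. Microglial list means ran from 2.39 to 3.41 at P7 and from 2.72 to 4.37 at P14. Of 12 tested microglial markers 1 rose and none fell, with summed levels of 98.5 to 189 TPM at P7 and 128 to 360.3 TPM at P14. Their part in the rises of Mertk and Gas6 was not tested.

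**Figure D3:**
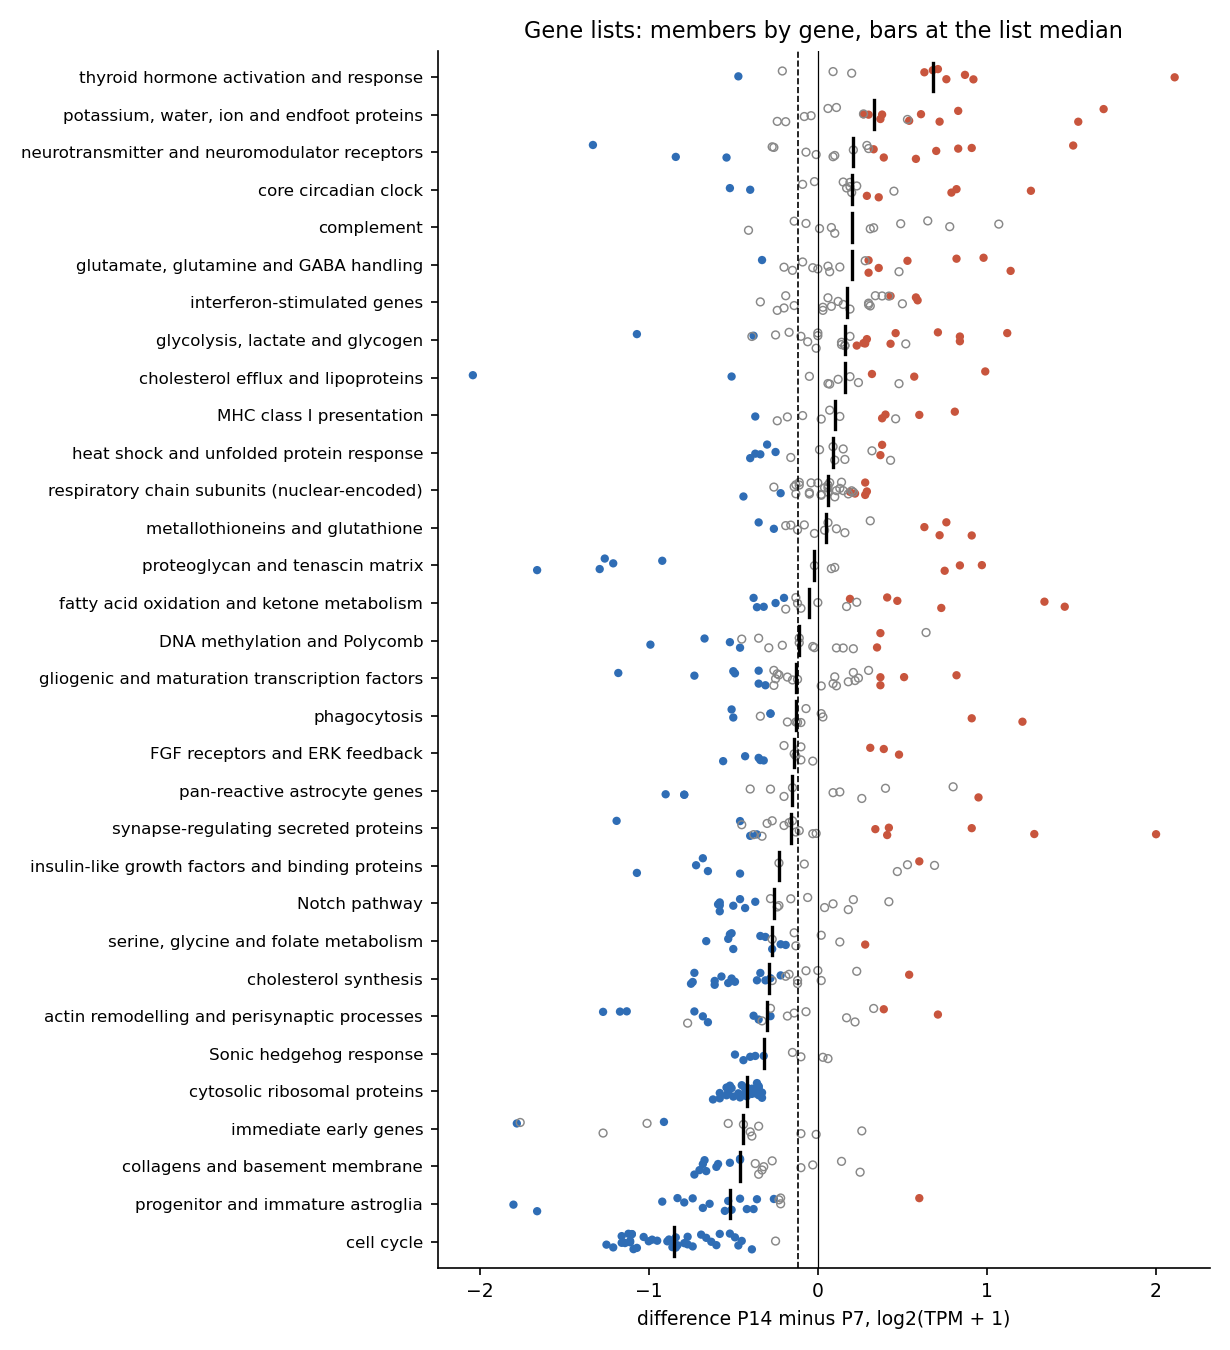
Difference between P14 and P7 in log2(TPM + 1) (x axis) for each tested member of the 32 function lists (y axis), ordered by list median. Filled points are called genes, red for higher and blue for lower, and open points were not called. Bars mark list medians and the dashed line the median of all genes, -0.12. Cell cycle stands lowest with a median of -0.85 and thyroid hormone highest with 0.68.

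Cholesterol synthesis had more falls than rises, though its summed level overlapped between the ages, with 3951 to 4394 TPM at P7 and 3662 to 4167 TPM at P14. Of 24 genes of cholesterol synthesis, 14 fell and 1 rose (11 and 2 after rescaling, and 8 falls in the fit of all 34 libraries), with a median of -0.29. Acat2, the first enzyme of the pathway, measured 169, 162, 173 and 171 TPM at P7 and 101, 106, 96.9 and 99.3 TPM at P14, a fall of 1.67-fold (log2 difference -0.74 ± 0.05 SE, limma adjusted p = 3.62e-05). Cyp51, lanosterol demethylase, fell 1.66-fold, from 138 ± 5.23 to 83.00 ± 4.25 TPM. Hmgcs1, which makes HMG-CoA, fell 1.53-fold, from 320.0 ± 10.9 to 209 ± 17.4 TPM, and Lss, lanosterol synthase, 1.74-fold, from 24.2 ± 2.06 to 13.9 ± 0.972 TPM. Each of these left no overlap between the ages. Msmo1, the sterol methyl oxidase that acts after Cyp51 in lanosterol demethylation, was more abundant than these 4 and rose 1.45-fold from 918, 939, 1033 and 873 TPM to 1246, 1520.4, 1290.0 and 1407 TPM (log2 difference 0.54 ± 0.08 SE, limma adjusted p = 0.00102). Of 17 members with a promoter entry, 15 (88.2%) held CCAAT in the 250 bases before the start, against 36.6% of tested genes with an entry. TTTGAA stood in 1 of the 17 (5.88%, against 10.2%), and neither E2F motif nor the sterol regulatory element in its LDL receptor form stood in any (1.71%, 0.801% and 0.0286% of tested genes).

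Among 12 genes of cholesterol efflux and lipoproteins, 3 rose and 2 fell (3 and 2 after rescaling). Clu, clusterin, rose 1.99-fold, from 4689 ± 540.4 to 9324 ± 1012 TPM. Apoe itself measured 36234, 35016, 39127 and 38645 TPM at P7 and 42425, 48428, 43887 and 41066 TPM at P14 and was not called (log2 difference 0.24 ± 0.09 SE, limma adjusted p = 0.0577). Abca1, the exporter of cholesterol to lipoproteins, fell 1.44-fold, from 41.3 ± 3.86 to 28.6 ± 2.31 TPM. Ch25h, cholesterol 25-hydroxylase, is one of the 12 largest falls under the rule given further on. It measured 18.3, 10.02, 9.26 and 12.3 TPM at P7 and 2.38, 3.98, 1.48 and 1.4 TPM at P14 (5.39-fold lower, log2 difference -2.04 ± 0.27 SE, limma adjusted p = 0.000659).

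Of 18 genes of fatty acid oxidation and ketone bodies, 6 rose and 5 fell (7 and 2 after rescaling). The share of falls was near the 27.0% of all genes, while 9.36% of all genes rose. The falls numbered 2 without P7 library 4 and 2 in the fit of all 34 libraries. Acsl3, a ligase that activates long-chain fatty acids, measured 290.1, 371, 390.0 and 305 TPM at P7 and 885, 919, 824 and 1110.4 TPM at P14, a rise of 2.76-fold (log2 difference 1.46 ± 0.12 SE, limma adjusted p = 5.82e-05). Acot11, a thioesterase with the reverse action, rose 2.61-fold, from 14.8 ± 2.97 to 38.6 ± 3.63 TPM. Acadl, a mitochondrial dehydrogenase of long-chain acids, fell 1.3-fold, from 226 ± 5.99 to 174 ± 6.52 TPM. The activating enzymes Acsbg1 (0.47) and Acsl6 (0.73) rose as well, while Cpt1a, the gate of entry into mitochondria, fell (-0.32, adjusted p = 0.00666).

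Glycolysis, lactate and glycogen were represented by 26 genes, of which 10 rose and 2 fell (15 and 1 after rescaling), and 2 rose in the fit of all 34 libraries. Aldoc, the astrocyte aldolase, measured 3583, 4011, 4655 and 3979 TPM at P7 and 6765, 7816, 6791 and 7699 TPM at P14, a rise of 1.79-fold (log2 difference 0.84 ± 0.09 SE, limma adjusted p = 0.000248). Enzymes of control steps moved apart. Pfkp, a phosphofructokinase, rose 2.22-fold from 52.6, 54.04, 53.9 and 50.6 TPM to 110.4, 104, 106 and 147 TPM. Hk2, the hexokinase typical of growing cells, fell 3.38-fold from 2.77, 2.6, 2.92 and 3.19 TPM to 0.978, 0.667, 1.04 and 0.716 TPM (log2 difference -1.07 ± 0.12 SE, limma adjusted p = 0.000249), while Hk1 was not called (0.14, adjusted p = 0.281). The glucose transporter gene Slc2a1 (0.71) and the glycogen phosphorylase gene Pygm (0.84) rose. Endothelium also expresses Slc2a1, and its part was not tested. The count of falls was 4 without P14 library 1 and 1 without P7 library 2.

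The respiratory chain moved little. Of 32 nuclear-encoded genes, 5 rose and 2 fell (12 and 0 after rescaling), all between -0.44 and 0.29, with 3 rises without P14 library 3 and 1 fall without P14 library 2 or 4 or P7 library 1, 2 or 4. Uqcrfs1, the Rieske protein of complex III, rose 1.22-fold (log2 difference 0.29 ± 0.06 SE, limma adjusted p = 0.00615) and Ndufs1, of complex I, 1.22-fold (log2 difference 0.28 ± 0.07 SE, limma adjusted p = 0.00875). Ndufa1, also of complex I, fell 1.35-fold (log2 difference -0.44 ± 0.10 SE, limma adjusted p = 0.00757) and was not called after rescaling.

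Serine, glycine and folate metabolism feeds nucleotide synthesis. Of its 16 genes, 10 fell and 1 rose (5 and 2 after rescaling), with 6 falls without P7 library 2 and 4 in the fit of all 34 libraries. Slc1a4, the neutral amino acid exchanger ASCT1, fell 1.58-fold from 235, 248, 277 and 272 TPM to 160.1, 179, 158 and 156 TPM. Gldc, of the glycine cleavage system, was the rise (log2 difference 0.28 ± 0.09 SE, limma adjusted p = 0.0432), a call lost without P14 library 2, 3 or 4 or P7 library 1, 2 or 4 (adjusted p = 0.0684 to 0.107).

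Among 16 metallothionein and glutathione genes, 4 rose and 2 fell (6 and 0 after rescaling), with 1 fall without P14 library 2 or 3 or P7 library 4. Mt1 and Mt2 bind zinc and copper. Mt1 measured 4761, 4802, 5670.0 and 4795 TPM at P7 and 9851, 9354, 9266 and 9181 TPM at P14, a rise of 1.88-fold (log2 difference 0.91 ± 0.08 SE, limma adjusted p = 7.75e-05), and Mt2 rose 1.64-fold, from 1333 ± 160.1 to 2181 ± 46.3 TPM. Gstm5, a glutathione transferase, rose 1.69-fold, from 1474 ± 73.5 to 2493 ± 209 TPM. Gstp1, another, fell 1.28-fold (log2 difference -0.35 ± 0.07 SE, limma adjusted p = 0.00372) and was not called after rescaling. Mt1 and Mt2, like several Gstm genes, are similar in sequence, and how reads shared by such genes were assigned is not given in the sources used here.

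All 33 cytosolic ribosomal protein genes fell, 25 of them also after rescaling. Their differences lay between -0.62 and -0.33, a narrow band with a median of -0.42. The summed level went from 14380 to 15610 TPM at P7 to 9981 to 12230 TPM at P14. Rps19 measured 709, 665, 636 and 711 TPM at P7 and 462, 423, 513 and 377 TPM at P14, the largest fall of the list at 1.53-fold (log2 difference -0.62 ± 0.09 SE, limma adjusted p = 0.000875). Rpl32 fell 1.49-fold, from 657 ± 40.5 to 441 ± 47.9 TPM. Ribosomal protein genes have many processed pseudogenes, and reads shared with them may be assigned differently. In the fit of all 34 libraries 11 of the 33 fell, where 1299 of all 13197 genes did.

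In the main fit, transcription factors of gliogenesis and maturation were called at shares near those of all genes (9.36% for rises, 27.0% for falls). After rescaling the share of rises was larger than the 15.1% of all genes. Of 28, 4 rose and 7 fell (9 and 4 after rescaling), and 1 rose and 4 fell in the fit of all 34 libraries. Olig2, a factor of glial progenitors and of the oligodendrocyte lineage (chromosome 16, 91225457 to 91228677), measured 68.1, 73.6, 78.3 and 79.6 TPM at P7 and 36.6, 35.2, 32.9 and 26.03 TPM at P14. It fell 2.29-fold with no overlap (log2 difference -1.18 ± 0.10 SE, limma adjusted p = 8.55e-05). Nfib, a nuclear factor I protein, fell 1.41-fold, from 95.1 ± 3.11 to 67.4 ± 4.09 TPM, and Hes1, a Notch effector, 1.42-fold, from 86.5 ± 4.94 to 61.1 ± 7.05 TPM. Nr1d1, the nuclear receptor REV-ERB alpha, rose 1.76-fold from 58.4, 75.01, 89.3 and 57.8 TPM to 109, 143, 124 and 117 TPM.

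Olig2 was set beside other genes of oligodendrocyte precursors. Olig1 fell 2.11-fold, from 279 ± 31.9 to 132 ± 23.4 TPM. Pdgfra measured 15.7, 12.3, 10.99 and 10.6 TPM at P7 and 18.6, 10.4, 9.52 and 6.51 TPM at P14 and was not called (limma adjusted p = 0.574). Pdgfra was listed both for the precursors and for fibroblasts and meninges, and the part of the latter in its level was not tested. The list as a whole had 3 rises and 3 falls among 10 genes (5 and 3 after rescaling), with 1 rise without P7 library 1, 3 or 4, and 0 rose and 3 fell in the fit of all 34 libraries. Cacng4, a subunit of AMPA receptors, fell 1.87-fold, from 8.78 ± 1.56 to 4.71 ± 0.777 TPM. Neu4, a sialidase, rose from 1.15, 0.914, 0.731 and 0.0241 TPM to 5.0, 2.52, 3.07 and 2.19 TPM (log2 difference 1.31 ± 0.26 SE, limma adjusted p = 0.0041).

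Notch signalling between neighbouring cells, which maintains neural progenitors, was compared next. Of 18 Notch genes, 8 fell and none rose (1 higher and 8 lower at an unadjusted p under 0.05). After rescaling 7 fell and 3 rose, 1 rose without P14 library 2 or P7 library 3, and 4 fell in the fit of all 34 libraries. Notch2, a receptor, fell 1.56-fold (log2 difference -0.58 ± 0.11 SE, limma adjusted p = 0.00257), and Hes6 1.38-fold, from 102 ± 6.28 to 74.01 ± 3.86 TPM. Dll3, a ligand-like member, fell 1.76-fold (log2 difference -0.59 ± 0.16 SE, limma adjusted p = 0.0189), a call lost without P14 library 3 or P7 library 4 (adjusted p = 0.0515 to 0.0544). Of 9 tested genes of the Sonic hedgehog response, 5 fell and none rose (0 higher and 5 lower at an unadjusted p under 0.05). The falls numbered 2 after rescaling, 3 without P14 library 2 and 1 in the fit of all 34 libraries. Smo, the signal transducer, fell 1.31-fold, from 26.3 ± 0.709 to 20.2 ± 1.27 TPM. Ptch1, receptor and target, fell 1.42-fold (log2 difference -0.49 ± 0.12 SE, limma adjusted p = 0.00874), and Boc, a co-receptor, 1.27-fold (log2 difference -0.32 ± 0.08 SE, limma adjusted p = 0.0129). Neither Ptch1 nor Boc was called after rescaling.

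FGF receptors moved in both directions. Of 14 genes, 3 rose and 5 fell (3 and 2 after rescaling), with 3 falls without P14 library 3 or P7 library 3, and 1 rose and 0 fell in the fit of all 34 libraries. After rescaling both shares were near those of all genes (15.1% for rises, 13.9% for falls). Fgfr3, the receptor most typical of astrocytes, rose 1.39-fold, from 281 ± 45.4 to 390.1 ± 51.7 TPM (log2 difference 0.48 ± 0.13 SE, limma adjusted p = 0.0153). Fgfr1 fell 1.27-fold, from 71.4 ± 5.47 to 55.98 ± 1.68 TPM. Etv4, a target of the pathway, fell 1.49-fold, from 48.4 ± 5.26 to 32.5 ± 3.89 TPM. Fgfrl1, a receptor without a kinase domain, fell 1.29-fold (log2 difference -0.35 ± 0.09 SE, limma adjusted p = 0.0101), not called after rescaling.

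Thyroid hormone genes had the highest median of the function lists, 0.68. Astrocytes import thyroxine and convert it to the active hormone for their neighbours. Of 11 tested, 7 rose and 1 fell, with the same counts after rescaling and 2 falls without P14 library 4. Slco1c1, a thyroxine importer, measured 412, 469, 462 and 438 TPM at P7 and 677, 672, 678 and 739 TPM at P14, a rise of 1.55-fold (log2 difference 0.63 ± 0.06 SE, limma adjusted p = 0.00016). Dio2, the activating deiodinase, rose from 16.6, 17.1, 22.3 and 14.3 TPM to 31.98, 24.3, 28.7 and 36.8 TPM (log2 difference 0.76 ± 0.15 SE, limma adjusted p = 0.00368). The receptors moved apart, Thrb upward (0.68, adjusted p = 0.00306) and Thra downward, from 40.5 ± 2.71 to 28.99 ± 3.09 TPM (log2 difference -0.47 ± 0.09 SE, limma adjusted p = 0.00277). Thrsp, a hormone-responsive gene of lipid synthesis, rose 1.9-fold, from 107 ± 11.98 to 204 ± 28.2 TPM. Nrgn, neurogranin, is a hormone target made by neurons and measured 4.92, 5.1, 5.03 and 4.54 TPM at P7 and 17.2, 31.8, 42.1 and 15.3 TPM at P14 (log2 difference 2.11 ± 0.28 SE, limma adjusted p = 0.000844). Slco1c1 is also expressed by brain endothelium, whose list mean was highest in P14 library 4, as was Slco1c1, and its part was not tested.

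Among 16 clock genes, 5 rose and 2 fell (9 and 2 after rescaling), and 1 rose and 0 fell in the fit of all 34 libraries. Npas2, a partner of BMAL1, rose 2.7-fold from 2.65, 4.02, 5.24 and 3.48 TPM to 9.17, 11.2, 10.6 and 10.5 TPM, and Arntl, which encodes BMAL1, fell 1.45-fold, from 29.98 ± 1.35 to 20.6 ± 2.14 TPM. Clock also fell (-0.40) and Dbp, an output gene, rose (0.79). The hour of day at which cells were collected is not given in the sources used here, and its part was not tested.

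Genes of actin and of growing processes fell more often than they rose, as did all genes tested (27.0% and 9.36%, or 13.9% and 15.1% after rescaling). Of 20, 2 rose and 9 fell (4 and 7 after rescaling), so the share of rises in the main fit was near that of all genes. Marcksl1 and Marcks bind actin at the membrane. Marcksl1 measured 215, 208, 212 and 229.6 TPM at P7 and 106, 99.6, 91.1 and 87.5 TPM at P14, a fall of 2.25-fold (log2 difference -1.17 ± 0.07 SE, limma adjusted p = 1.67e-05), and Marcks fell 2.2-fold, from 117 ± 4.78 to 53.3 ± 5.16 TPM. Dpysl3, a protein of growth cones, fell 2.49-fold, from 33.6 ± 2.86 to 13.5 ± 2.32 TPM. Ezr, ezrin of the fine perisynaptic processes, rose from 175, 197, 213 and 191 TPM to 239, 262, 241 and 278 TPM (log2 difference 0.39 ± 0.08 SE, limma adjusted p = 0.00331). Tubb3, a neuronal tubulin, also rose (log2 difference 0.71 ± 0.20 SE, limma adjusted p = 0.0227), a call lost without P14 library 1 or P7 library 1 (adjusted p = 0.0541 to 0.0544).

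Of 11 tested genes of insulin-like growth factors, 5 fell and 1 rose, with the same counts after rescaling and 2 rises without P14 library 2, and 0 rose and 2 fell in the fit of all 34 libraries. Igf2, an imprinted growth factor also made by meninges, fell 1.67-fold, from 222 ± 44.7 to 132 ± 8.93 TPM. Igf2bp3, an RNA-binding protein of fetal tissue, fell from 2.41, 1.85, 1.8 and 2.13 TPM to 0.255, 0.657, 0.513 and 0.405 TPM. Igfbp3 was the rise (log2 difference 0.60 ± 0.17 SE, limma adjusted p = 0.0236), lost without P14 library 3 or P7 library 1 or 3 (adjusted p = 0.0539 to 0.0604). Among 18 genes of DNA methylation and Polycomb, 2 rose and 4 fell (3 and 4 after rescaling). In the main fit both shares were near those of all genes (9.36% for rises and 27.0% for falls). There was no rise without P14 library 1 or 4 or P7 library 2, and 1 without P14 library 3 or P7 library 1, 3 or 4. Ezh2, the Polycomb methyltransferase, fell 1.64-fold, from 20.1 ± 1.57 to 12.2 ± 0.527 TPM. Uhrf1 and Dnmt1, which copy DNA methylation after replication, fell 2.23-fold and 1.51-fold (-0.99 and -0.52 as log2 differences). Cbx8 rose (log2 difference 0.37 ± 0.12 SE, limma adjusted p = 0.0293), lost without P14 library 1, 3 or 4 or P7 library 2 or 3 (adjusted p = 0.0589 to 0.0792).

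Immune genes moved in both directions. 3 genes of MHC class II, which presents antigen to helper T cells, stood among the 12 largest falls named by the rule given further on. H2-Ab1 measured 33.2, 31.6, 29.8 and 28.5 TPM at P7 and 11.2, 9.11, 9.77 and 9.51 TPM at P14, a fall of 3.11-fold (log2 difference -1.55 ± 0.09 SE, limma adjusted p = 1.25e-05). H2-Aa measured 13.5, 10.3, 7.85 and 9.38 TPM at P7 and 2.64, 1.67, 2.53 and 1.73 TPM at P14 (4.79-fold lower), and H2-Eb1 fell 3.26-fold, from 13.2 ± 1.74 to 4.05 ± 0.525 TPM. That rule took only genes without overlap between the ages, so the gap seen for these 3 was fixed by it. Microglia and macrophages also express these genes, and the part of those cells in the falls was not tested. Their 12 tested markers spread widely within P14, as given above. Among them P2ry12, a receptor of resting microglia, was the 1 called and rose 2.06-fold from 5.68, 5.13, 5.66 and 6.36 TPM to 8.58, 11.3, 17.4 and 9.72 TPM.

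MHC class I, which presents antigen to killer T cells, was tested with 12 genes, of which 4 rose and 1 fell (5 and 0 after rescaling). H2-T23 rose 1.81-fold (log2 difference 0.81 ± 0.22 SE, limma adjusted p = 0.018) and H2-K1 1.31-fold (log2 difference 0.38 ± 0.11 SE, limma adjusted p = 0.0188), both lost without P7 library 4 (adjusted p = 0.0522 and 0.0527). The rises numbered 2 without P14 library 1 or 4 or P7 library 1, and 0 without P7 library 4 and in the fit of all 34 libraries. Calr, a chaperone of class I assembly, fell 1.3-fold (log2 difference -0.37 ± 0.10 SE, limma adjusted p = 0.0139), not called after rescaling. H2 genes are similar in sequence, and reads shared between them may be assigned differently.

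Of 22 tested interferon-stimulated genes, 3 rose and none fell (4 and 0 after rescaling; 7 and 1 without P14 library 2, and 5 rises without P7 library 1). The share of rises was near that of all genes (9.36%, and 15.1% after rescaling). Lgals3bp, a secreted glycoprotein, rose 1.51-fold, from 51.5 ± 4.33 to 77.8 ± 3.84 TPM. Xaf1 rose 1.54-fold (log2 difference 0.58 ± 0.15 SE, limma adjusted p = 0.012), and Rtp4 (log2 difference 0.43 ± 0.15 SE, limma adjusted p = 0.0472) was lost without P14 library 1, 3 or 4 or P7 library 2, 3 or 4 (adjusted p = 0.0726 to 0.118). Among 13 genes raised in reactive astrocytes, 1 rose and 3 fell (1 and 3 after rescaling), with 2 rises without P14 library 2. In the main fit both shares were near those of all genes (9.36% and 27.0%). Timp1, an inhibitor of matrix proteases, fell 2.05-fold, from 10.1 ± 1.84 to 4.91 ± 0.609 TPM, and Cd44, a hyaluronan receptor, 1.83-fold, from 12.99 ± 0.574 to 7.1 ± 0.587 TPM. Hspb1, a small heat shock protein, rose (log2 difference 0.95 ± 0.31 SE, limma adjusted p = 0.0438), a call lost without P14 library 1, 3 or 4 or P7 library 1, 3 or 4 (adjusted p = 0.0585 to 0.114).

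None of 12 tested complement genes was called by limma at the adjusted threshold (1 higher and 0 lower at an unadjusted p under 0.05). After rescaling 1 rose, and 1 rose and 1 fell without P7 library 1. C4b measured 31.6, 54.3, 58.97 and 35.5 TPM at P7 and 34.3, 34.6, 33.9 and 27.9 TPM at P14 (adjusted p = 0.124). C1qa, a microglial gene, measured 14.7, 5.17, 2.31 and 10.7 TPM at P7 and 9.82, 23.2, 35.1 and 6.58 TPM at P14 (adjusted p = 0.207), with P14 library 3 the highest. Of 13 tested immediate early genes, 2 fell and none rose (0 higher and 3 lower at an unadjusted p under 0.05), and no call was left after rescaling. Egr1 measured 72.1, 124, 170.2 and 48.6 TPM at P7 and 81.1, 13.8, 14.7 and 28.4 TPM at P14 (log2 difference -1.78 ± 0.60 SE, limma adjusted p = 0.0491), a call lost without P14 library 2, 3 or 4 or P7 library 1, 2 or 3 (adjusted p = 0.0887 to 0.13). Fosb was lost without P14 library 2, 3 or 4 or P7 library 1, 2 or 3 (adjusted p = 0.0678 to 0.115). Fos measured 299, 528, 750.3 and 202 TPM at P7 and 405, 58.8, 50.8 and 144 TPM at P14 and was not called (adjusted p = 0.085). P14 libraries 2 and 3 were the low ones for Egr1 and Fos. The list had 6 falls without P14 library 1, and none without any 1 of P14 libraries 2 to 4 or P7 libraries 1 to 3. Such genes respond within minutes to activity and to handling of tissue, and neither is recorded in the labels.

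Of 15 tested heat shock and unfolded protein genes, 2 rose and 5 fell (4 and 2 after rescaling), 1 rose and 1 fell in the fit of all 34 libraries, with 1 rise without P14 library 1 or 4 or P7 library 1, 3 or 4. In the main fit both shares were near those of all genes (9.36% for rises and 27.0% for falls). Pdia4, a disulfide isomerase of the endoplasmic reticulum, fell 1.26-fold, from 220.1 ± 9.84 to 174 ± 14.7 TPM. Hsp90b1 fell 1.19-fold (log2 difference -0.25 ± 0.05 SE, limma adjusted p = 0.0041), not called after rescaling. Atf4, a stress transcription factor, fell 1.31-fold, from 144 ± 8.29 to 109.5 ± 15.1 TPM. Dnajb9 rose 1.31-fold, from 30.2 ± 2.07 to 39.4 ± 3.08 TPM, and Herpud1 rose (log2 difference 0.38 ± 0.13 SE, limma adjusted p = 0.0415), lost without P14 library 1 or 4 or P7 library 1, 3 or 4 (adjusted p = 0.0657 to 0.0991).

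The largest changes were then read off by size among the genes called, leaving out those whose ages overlapped or whose higher mean was under 5 TPM. The 12 largest rises were Etnppl, Vip, Mobp, Kirrel2, Sst, Tac2, Rpe65, Slc17a7, Fam107a, Tmem52, Nrgn and Nrsn1, and the 12 largest falls Slc14a2, Ch25h, Kcnmb4, H2-Aa, Fabp7, Tnc, Pla2g3, H2-Ab1, Crip3, Mest, Pde1b and H2-Eb1. Several of the rises are neuronal or myelin genes and are described with those cells.

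Etnppl, a phosphoethanolamine lyase enriched in astrocytes (chromosome 3, 130617448 to 130637521), measured 0.0346, 5.34, 3.93 and 0.0447 TPM at P7 and 33.6, 35.02, 33.97 and 87.9 TPM at P14. P7 libraries 1 and 4 were near 0 and P14 library 4 stood far above the rest. The level was 20.4-fold higher at P14 (log2 difference 4.20 ± 0.67 SE, limma adjusted p = 0.0022). Fam107a, an actin-associated protein, measured 19.4, 29.9, 34.8 and 24.3 TPM at P7 and 132, 117, 123 and 144 TPM at P14, a rise of 4.77-fold (log2 difference 2.24 ± 0.16 SE, limma adjusted p = 5.23e-05). Kirrel2, a cell adhesion protein, measured 1.72, 3.99, 5.0 and 2.71 TPM at P7 and 23.6, 27.1, 26.99 and 41.4 TPM at P14 (8.88-fold higher, log2 difference 2.85 ± 0.25 SE, limma adjusted p = 0.000153). Rpe65, the retinoid isomerase best known from the retinal pigment epithelium, measured 2.42, 4.07, 1.8 and 0 TPM at P7 and 11.9, 12.2, 10.7 and 15.1 TPM at P14 (log2 difference 2.34 ± 0.43 SE, limma adjusted p = 0.00417). Tmem52, a membrane protein, rose 6.15-fold, from 2.42 ± 0.524 to 14.8 ± 6.1 TPM. The absence of overlap between the ages was a condition for naming these genes.

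Slc14a2, a urea transporter, showed the largest fall among these. It measured 62.7, 51.4, 65.3 and 74.5 TPM at P7 and 15.98, 16.3, 12.2 and 12.7 TPM at P14 (4.44-fold lower, log2 difference -2.07 ± 0.13 SE, limma adjusted p = 1.83e-05). Kcnmb4, a regulatory subunit of the BK potassium channel, measured 27.9, 22.7, 23.8 and 30.4 TPM at P7 and 8.82, 6.9, 5.69 and 4.45 TPM at P14 (4.05-fold lower, log2 difference -1.89 ± 0.17 SE, limma adjusted p = 0.00011). As for the rises, the absence of overlap was a condition of the selection. Pla2g3, a secreted phospholipase, fell 3.07-fold, from 50.8 ± 1.96 to 16.5 ± 3.08 TPM. Pde1b, a calcium-dependent phosphodiesterase, fell 3.0-fold, from 28.9 ± 1.8 to 9.63 ± 1.28 TPM. Mest, an imprinted gene of growth, fell 3.05-fold, from 35.97 ± 5.61 to 11.8 ± 2.3 TPM, and Crip3, a LIM protein, 4.11-fold, from 7.49 ± 3.22 to 1.82 ± 0.622 TPM.

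Transcripts of neurons rose over the week. Of 13 neuronal markers, 11 rose and none fell, with the same counts after rescaling, 3 rises in the fit of all 34 libraries and a median of 0.97. Their list mean was 1.98 to 2.19 at P7 and 2.86 to 3.42 at P14, and the summed level 56.0 to 76.9 and 109.8 to 170.3 TPM. Slc17a7, the vesicular glutamate transporter of excitatory cortical neurons, measured 0.824, 1.49, 1.08 and 0.994 TPM at P7 and 9.12, 9.91, 12.5 and 6.2 TPM at P14 (8.61-fold higher, log2 difference 2.29 ± 0.18 SE, limma adjusted p = 5.48e-05). Gad1, the GABA-making enzyme, rose 3.92-fold, from 2.44 ± 0.478 to 9.58 ± 1.26 TPM. Nefl, a neurofilament, rose 5.01-fold, from 1.15 ± 0.319 to 5.78 ± 1.58 TPM. Snap25, a protein of synaptic vesicle release, rose 1.67-fold, from 19.1 ± 6.57 to 31.9 ± 3.14 TPM. Peptides of interneurons were among the largest rises. Vip was listed at 0 in P7 libraries 1, 3 and 4 and at 0.0519 TPM in library 2, and measured 12.9, 6.58, 9.9 and 7.06 TPM at P14 (limma adjusted p = 1.25e-05). Vip passed the filter only through its P14 values, so it could be called only as a rise. Sst, somatostatin, measured 3.84, 1.82, 2.56 and 5.14 TPM at P7 and 53.6, 26.8, 17.1 and 12.9 TPM at P14 (log2 difference 2.58 ± 0.42 SE, limma adjusted p = 0.00257). Tac2 rose from 0, 1.38, 0.735 and 0.581 TPM to 9.35, 6.59, 8.39 and 5.61 TPM, and Nrsn1, a vesicle protein of neurons, from 3.33, 5.41, 2.95 and 3.19 TPM to 11.5, 26.5, 30.4 and 11.1 TPM. Markers of immature neurons were scarce. Of 8, only Sox11 and Dlx2 passed the filter, and Dlx2 was not called (adjusted p = 0.885).

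Myelin transcripts were compared next. Of 8 tested oligodendrocyte genes, 2 rose and none fell. Mobp was listed at 0 in all 4 P7 libraries and measured 5.48, 10.6, 13.8 and 6.21 TPM at P14 (limma adjusted p = 4.69e-05). It passed the filter only through its P14 values, so it could be called only as a rise. Mbp, myelin basic protein, measured 15.5, 16.9, 18.6 and 15.8 TPM at P7 and 31.3, 85.03, 97.2 and 27.8 TPM at P14. Every P14 library was above every P7 library, with a wide spread at P14 (log2 difference 1.58 ± 0.40 SE, limma adjusted p = 0.0156).

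Vascular and ventricular cells were compared in the same way. Of 12 endothelial genes, 2 rose and none fell (6 rises without P14 library 2, 1 without P7 library 1). Ly6c1 measured 237, 407, 302 and 266 TPM at P7 and 1227, 509, 924 and 1786 TPM at P14 (log2 difference 1.76 ± 0.36 SE, limma adjusted p = 0.0061). Slco1a4, an organic anion transporter, rose 2.74-fold (log2 difference 1.30 ± 0.34 SE, limma adjusted p = 0.0178), lost without P7 library 1 (adjusted p = 0.055). No pericyte gene of 10 was called by limma (2 higher and 0 lower at an unadjusted p under 0.05). After rescaling, and without P14 library 2 or P7 library 2, 2 rose, and Vtn measured 2712, 2144, 1546 and 1612 TPM at P7 and 3541, 1411, 2088 and 2901 TPM at P14. Of 10 ependymal genes, 6 rose and none fell, with the same counts after rescaling and no rise in the fit of all 34 libraries. Ccdc153, a protein of motile cilia, rose 2.28-fold from 66.4, 84.9, 60.1 and 77.7 TPM to 196, 177, 132 and 152 TPM, and Rarres2, chemerin, 1.73-fold, from 265 ± 22.8 to 458 ± 42.01 TPM. Of 6 tested choroid plexus genes, 1 fell (2 without P14 library 1) and none rose (1 without P7 library 2). Otx2 fell from 4.61, 10.1, 4.52 and 6.73 TPM to 2.86, 2.91, 2.35 and 1.83 TPM. Ttr, transthyretin, measured 39.5, 196, 6.96 and 6.29 TPM at P7 and 35.3, 0.249, 4.08 and 0.536 TPM at P14 and was not called (adjusted p = 0.18), with P7 library 2 the highest. None of 5 tested erythroid genes was called by limma (0 higher and 0 lower at an unadjusted p under 0.05), and the lowest adjusted p was 0.309 (Hba-a2).

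**Figure D4:**
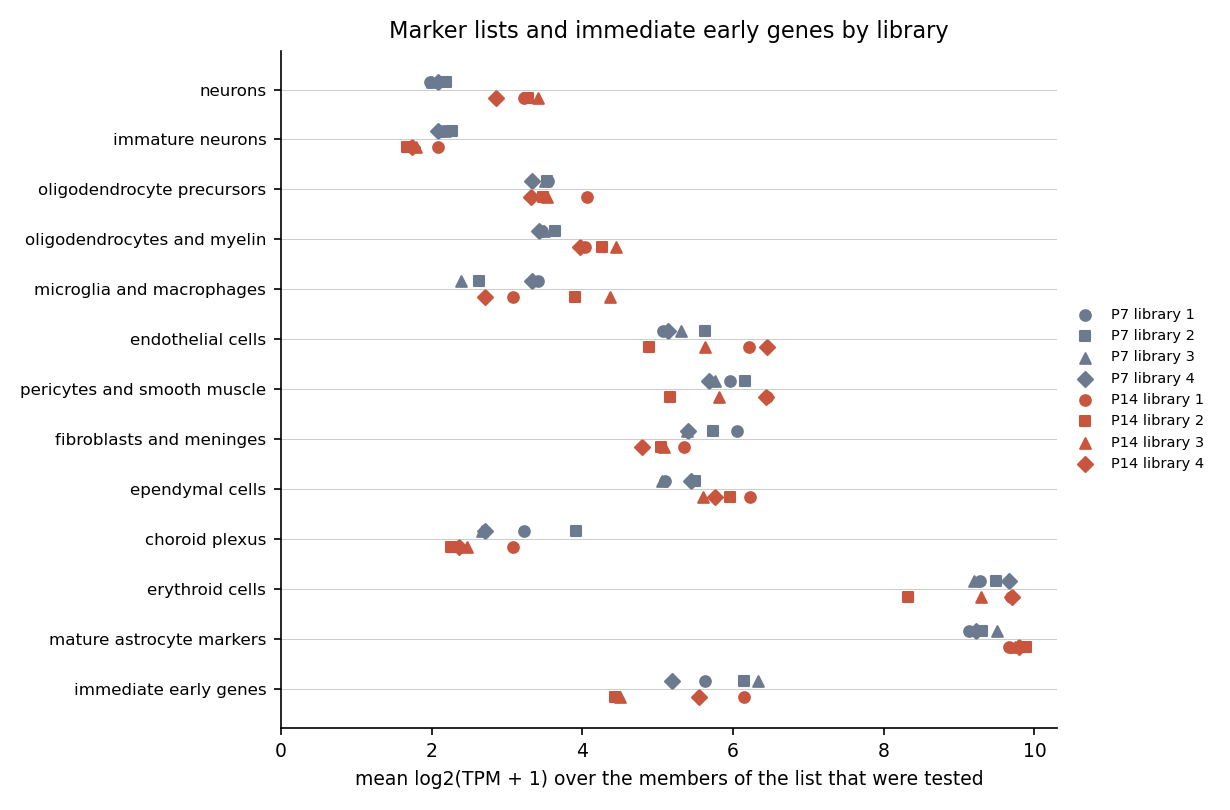
Mean log2(TPM + 1) over the tested members of each marker list (x axis), 1 point per library, for 12 lists of cell markers and the immediate early genes (y axis). Grey points are P7 and red points P14, with a shape per library number. Neuronal means do not overlap between the ages (1.98 to 2.19 and 2.86 to 3.42), whereas microglial and endothelial means do.

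Levels at later ages show how far the change had gone by P14, as a description without a test. Ccnd2 averaged 313 ± 14.3 TPM at P7, 146 ± 7.78 at P14, 131 ± 13.9 at P21 (SD, n = 3) and 144 ± 12.5 at P60 (SD, n = 3), so the P14 and P60 means lay within 1 SD of each other. Ncan went from 46.5 ± 5.33 TPM at P14 to 38.2 ± 2.37 at P21 and 26.4 ± 1.38 at P60. Gjb6 stood at 1302 ± 232 TPM at P14, 1623 ± 486 at P21 and 1240.2 ± 29.6 at P60. Slc1a2 stood at 412 ± 24.2, 477 ± 5.81 and 399 ± 32.6 TPM at these ages. For both genes the P60 mean lay within 1 SD of the P14 mean. Other genes also kept changing after P14, though for Fabp7 and Mertk the step from P7 to P14 was larger. Fabp7 averaged 1349 ± 277 TPM at P14 and 421 ± 118 at P21. Mertk averaged 109.6 ± 13.7 TPM at P14 and 159.8 ± 35.98 at P21, and Etnppl went from 47.6 ± 26.8 TPM at P14 to 224 ± 79.00 at P21 and 308 ± 8.1 at P60. Mobp averaged 9.01 ± 3.89 TPM at P14 and 138 ± 66.2 at P21. Fewer genes were listed at 0 at P21 (3366 to 3523) and P60 (2854 to 3130) than at P14, and the part of that difference in these levels was not tested.

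**Figure D5:**
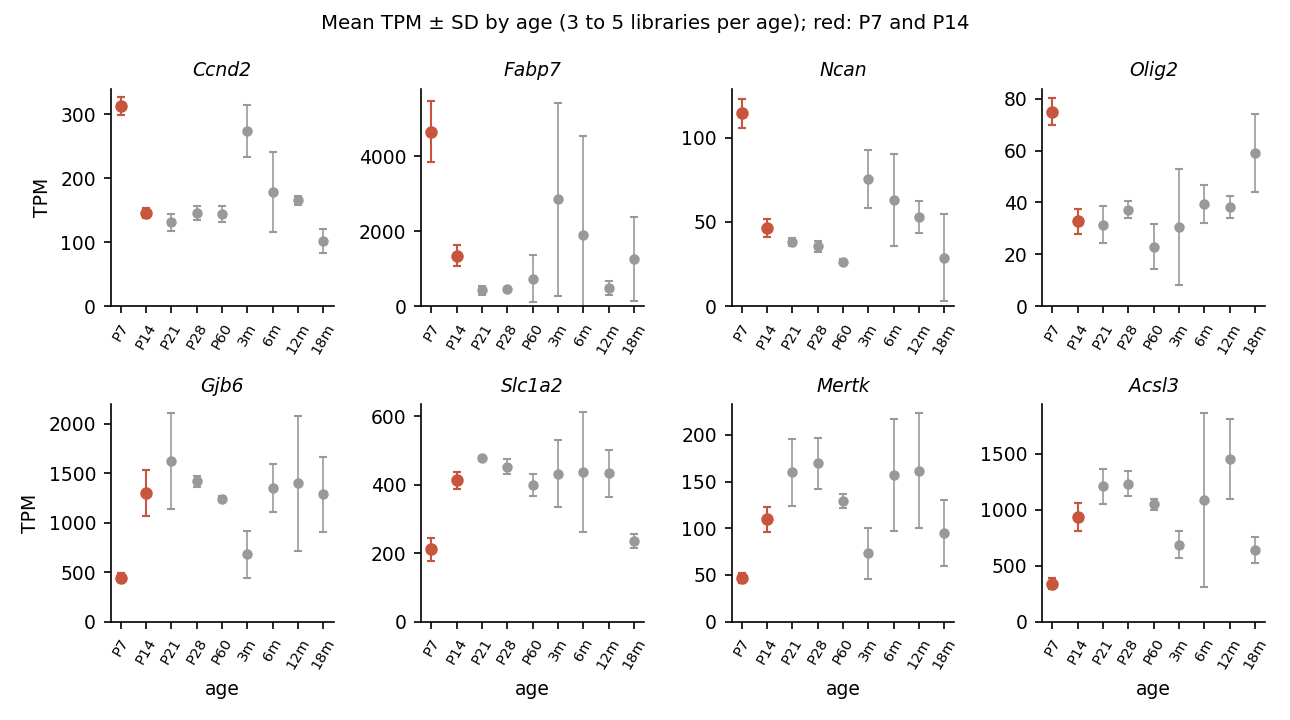
Mean TPM ± SD (y axis, from 0) of 8 genes at the 9 ages (x axis, in order and not to scale), with P7 and P14 in red and 3 to 5 libraries per age. The step from P7 to P14 is the largest between neighbouring ages up to P60 for each of the 8 genes shown. For Etnppl and Mobp, which are not shown, the step from P14 to P21 was larger.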

How the data were processed

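RNA of cortical astrocytes was sequenced in 34 libraries of 9 ages, of which the 4 at P7 and the 4 at P14 were compared. The values are TPM per gene, normalized for gene length and library size, as deposited by the authors in 1 table of 20614 genes, 1 of which has no values. Per the labels' protocols, libraries were made from small amounts of polyadenylated RNA with the SMART-Seq v4 kit. Per the submitters' processing notes, Trim Galore 0.6.4, STAR 2.7.1a, RSEM 1.2.28, DESeq2 1.36.0 and the build mm10 were named, and the step each served is not given in the sources used here. TPM keeps no depth, so the number of reads behind a value is unknown and no counting interval was formed.

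Groups came from the labelled developmental stage. Genes reaching 1 TPM in at least 4 of the 8 libraries (13197) were tested on log2(TPM + 1), a pseudocount of 1, with limma 3.58.1 in R 4.3.3 (trend and robust options, statmod 1.5.0), with p-values adjusted over all genes tested by Benjamini-Hochberg at 0.05. All 4 libraries of each age entered, with none dropped or imputed. Folds are ratios of mean TPM. On simulated data with 13197 genes, the fit recovered 64% of genes changed 1.5-fold and 85% of those changed 2-fold, with 5 false calls of 154. These folds were set on the log2(TPM + 1) scale and not as ratios of mean TPM. Far fewer genes were changed than were called in the data, so these shares are not the sensitivity of this comparison. Other tools were Python 3.11.15, pandas 2.3.3 and matplotlib 3.10.9.

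The 8 libraries, the 44 gene lists (32 of functions, 12 of cell markers) and the rule for named genes were chosen with earlier results of these data known. The rule named the 12 largest rises and falls among called genes with at least 5 TPM in the higher group and no overlap, the 3 members of smallest p and the largest called rise and fall of each list, and a fixed set of astrocyte and other cell markers, 170 genes in all, a few of which are not reported here. Genes named besides these were chosen after their values were seen. Gene positions are those of the GENCODE M21 annotation of GRCm38. Promoters were matched by symbol in RefSeq's table, with the first listed start of each symbol. Some listed starts, among them those of Nsdhl and Sc5d of the cholesterol list, did not match a transcript start of GENCODE M21. Alternatives were another pseudocount (0.1), a higher minimum (5 TPM) or none, scaling by median-of-ratios or by quantiles, array weights, a replicate block, a fit of all 34 libraries and leaving out each library. Leaving out P14 libraries 2 and 3, or 1 and 4, was added after seeing the data.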

Additional observations from a re-analysis of the deposited data

Results flagged for a closer look

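In each group of 4 libraries, the highest or lowest value was set against the others by Dixon's ratio for the named genes and for the means of the lists, 428 groups in all. A gap to the nearest library above Dixon's critical share of the group's range marked a library, and chance alone marks about 1 group in 20. There were 18 such libraries.

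At P14, library 4 was the highest for 4 genes: Etnppl at 87.87 TPM (next 35.025), Tmem52 at 23.977 TPM (next 12.037), Pfkp at 146.84 TPM (next 110.41) and Slco1c1 at 738.79 TPM (next 678.34). The same library was the lowest for C4b, at 27.915 TPM (next 33.869). P14 library 1 was the highest for the mitotic cyclin Ccnb1 (14.266 TPM, next 10.886), for Col3a1 (17.254 TPM, next 11.905) and for Ttr (35.333 TPM, next 4.082). P14 library 2 was the lowest for Nfib (61.305 TPM, next 68.783) and the highest for Ezh2 (13.007 TPM, next 12.026). P14 library 3 was the lowest for Folr1, a folate receptor (8.0293 TPM, next 12.898), and for the mean of the FGF list (5.001 in log2(TPM + 1), next 5.102).

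At P7, library 1 was the highest for Col4a5 (9.0996 TPM, next 8.4005) and Timp1 (12.816 TPM, next 9.4249). P7 library 2 was the highest for Vip, at 0.051921 TPM with the other libraries listed at 0, and for Nrsn1 (5.4122 TPM, next 3.3264). P7 library 3 was the highest for Mt1 (5670.0 TPM, next 4802.2), and P7 library 4 the lowest for the mean of the oligodendrocyte precursor list (3.336, next 3.506). For Etnppl, Tmem52, Pfkp, Slco1c1, Ccnb1, Vip, Nrsn1, Mt1, Nfib and Ezh2 the ages did not overlap with these libraries included. For Etnppl, Tmem52, Vip and Nrsn1 that was a condition of being named among the largest rises.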

How the results depend on the processing

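Of 170 named genes, 149 were called, and no called one changed sign under any alternative run. Scaling moved the balance of calls: 1990 genes rose and 1832 fell after median-of-ratios rescaling, and 2373 fell after quantile normalization, with 52.1% and 43.6% of calls higher against 25.7% in the main result. These scalings ended 10 and 4 named calls, among them Glud1, Ptch1, Calr, Hsp90b1 and Egr1. A pseudocount of 0.1 gave 560 genes past a factor of 2, against 269, since it widens differences of low genes. The fit of all 34 libraries called 1784 genes, 485 higher and 1299 lower, and ended 60 named calls, among them Fabp7, Ptprz1, S100b, Slc1a3, Ptx3, Col4a5, Rps19, Marcks, Igf2, Slc17a7, Nefl, Mbp, Mobp, P2ry12 and Ccdc153. In that fit no fibroblast, oligodendrocyte or microglial gene was called, 0 oligodendrocyte precursor genes rose, and rises numbered 1 for the clock, 1 for interferon-stimulated genes and 1 for proteoglycans. The cause was not tested. A filter of 5 TPM left 5 rises of neuronal markers, with fewer of them tested. Without P14 libraries 2 and 3, 2199 genes fell and 10 named calls ended. Without P14 libraries 1 and 4, 13 ended. Array weights ended none, no filter 4 and the other pseudocount 1.

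Leaving out 1 library at a time gave 3779 to 4617 called genes, 951 to 1274 higher, 2784 to 3532 lower and 246 to 319 past a factor of 2, and ended 4 to 9 named calls. Without P14 libraries 2 and 3, 11 of 12 endothelial and 6 of 10 pericyte genes rose, and without libraries 1 and 4, 7 of 12 microglial genes rose and 8 of 13 immediate early genes fell. With a replicate block, 3664 genes were called and 8 named calls ended (Slc1a3, Boc, H2-K1, Hspb1, Fosb, Egr1, Herpud1 and Slco1a4). Same-numbered libraries had correlations of -0.0292, -0.2624, -0.2029 and -0.22 between their deviations from the group means, and no library correlated best with its own number, so the numbers were not read as a pairing.

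Values that changed sign belonged to genes that were not called. Pdgfra ranged from -0.46 to 0.00 with 1 library left out, Dlx2 from -0.09 to 0.15 (-0.19 without P14 libraries 1 and 4) and Hbb-bs from -0.22 to 0.25 (0.06 after rescaling, 0.36 without P14 libraries 2 and 3). Vtn was -0.19 without P14 libraries 1 and 4, and Hba-a1 0.06 without libraries 2 and 3. TPM gives no depth, so what low values such as those of Vip, Tac2 or Hk2 resolve is unknown.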

Other observations

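Families of genes that share a name or function were counted in the same fit. They were chosen after values were seen, and their counts are a description. Those counts are to be read against the shares of all genes tested, 9.36% for rises and 27.0% for falls. After rescaling these shares were 15.1% and 13.9%. MHC class II is the family of H2-Aa, H2-Ab1 and H2-Eb1. It has 11 members, of which 6 were tested and 6 fell, also after rescaling, with a median difference of -1.48. Cd74, the invariant chain that guides class II molecules, measured 28.8, 25.2, 19.3 and 20.2 TPM at P7 and 9.37, 10.9, 8.43 and 4.01 TPM at P14 (log2 difference -1.46 ± 0.26 SE, limma adjusted p = 0.00292). H2-DMa, which loads peptides, fell 2.26-fold, from 16.5 ± 0.909 to 7.3 ± 0.702 TPM. The part of microglia and macrophages, which express these genes, was not tested.

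Neuropeptides of cortical interneurons were represented by 11 genes, of which 10 were tested, 7 rose and 1 fell, with a median difference of 1.39. Cck, cholecystokinin, measured 6.75, 8.28, 6.77 and 9.5 TPM at P7 and 37.3, 36.3, 33.7 and 32.6 TPM at P14 (log2 difference 2.04 ± 0.11 SE, limma adjusted p = 1.25e-05). Crh, corticotropin-releasing hormone, was listed at 0 in all P7 libraries and measured 2.82, 1.68, 2.45 and 2.29 TPM at P14 (limma adjusted p = 5.48e-05). Crh and Vip passed the filter only through their P14 values, so in the count above they could stand only as rises. Tac1, the substance P precursor, measured 0.373, 1.14, 0.512 and 1.16 TPM at P7 and 3.69, 3.63, 3.73 and 0.798 TPM at P14 (log2 difference 1.07 ± 0.32 SE, limma adjusted p = 0.0283). Pdyn, prodynorphin, was the member that fell, from 4.36, 6.32, 6.18 and 4.77 TPM to 1.65, 1.84, 1.79 and 1.04 TPM (log2 difference -1.31 ± 0.15 SE, limma adjusted p = 0.000286). Npy, neuropeptide Y, measured 45.98, 70.6, 196 and 57.1 TPM at P7 and 235, 51.1, 69.04 and 355 TPM at P14 and was not called (adjusted p = 0.441). Neuronal markers rose over the same week, and their part in these values was not tested.

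Ionotropic glutamate receptor subunits had 4 rises and no fall among 14 tested genes. Grin2c, an NMDA receptor subunit that astrocytes also express, measured 8.7, 13.2, 16.3 and 9.03 TPM at P7 and 46.6, 44.1, 43.8 and 59.1 TPM at P14 (log2 difference 1.98 ± 0.19 SE, limma adjusted p = 0.000179). Cytochrome P450 genes had 10 rises and 3 falls among 20 (10 and 2 after rescaling). In the machinery of RNA and protein turnover the counts depended on the scale. Of 23 splicing factor genes 20 fell, 8 after rescaling. Of 49 proteasome genes 27 fell, 4 after rescaling. Of 54 translation initiation factor genes 24 fell, 9 after rescaling. Of 51 histone genes 17 fell and 4 rose, and 15 and 6 did after rescaling.

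Potassium channel genes as a whole family moved in both directions. Of 52 tested Kcn genes 9 rose and 9 fell, and 13 and 8 did after rescaling. In the main fit the falls were a smaller share than the 27.0% of all genes, and the rises a larger share than the 9.36%. Beside Kcnk1, Kcnn2, a calcium-activated channel, rose 2.1-fold, from 69.5 ± 14.7 to 146 ± 17.9 TPM, and Kcng4, a modifier subunit, rose from 0.757, 1.41, 1.58 and 0.727 TPM to 4.54, 6.17, 4.95 and 7.57 TPM. Beside Kcnmb4, the inward rectifier gene Kcnj6 fell from 2.84, 1.98, 3.61 and 2.07 TPM to 0.32, 0.314, 0.362 and 0.161 TPM (log2 difference -1.47 ± 0.16 SE, limma adjusted p = 0.000219). Kcne1l, a regulatory subunit, fell 1.99-fold, from 158 ± 9.37 to 79.3 ± 6.27 TPM, and Kcnd3, a channel of transient currents, 2.26-fold, from 7.38 ± 0.679 to 3.26 ± 0.46 TPM. Of 247 solute carrier genes 37 rose and 42 fell (58 and 20 after rescaling), and of 348 zinc finger genes 9 rose and 58 fell (24 and 24). In both families the falls of the main fit were a smaller share than the 27.0% of all genes. Vesicular ATPase genes had 2 rises and 4 falls among 19 (7 and 0), RNA helicase genes 0 and 13 among 35 (1 and 4) and claudin genes 1 and 1 among 7 (1 and 0). Mitochondrial ribosomal protein genes had 0 and 22 among 78 (5 and 2), with a share of falls near the 27.0% of all genes.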
